A study of Mus musculus with 6 samples.

Results

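The genes of cholesterol synthesis, uptake and efflux were followed step by step in mouse embryonic stem cells, with and without BMP inhibitors. The set holds 29 genes listed by name, all found among the 53465 genes of each count table. They are 8 genes of the mevalonate and isoprenoid steps, 11 of the steps from squalene to cholesterol, 4 that control the transcription factor SREBP2, 3 of sterol transport, storage and receptor turnover, and 3 of efflux. Libraries came from the Royan B20 line, an established mouse embryonic stem cell line grown on 0.1% gelatin and passaged 7 times with LIF. Both groups grew in R2i, which the labels define as 1 µM PD0329501 (spelled so there) plus 10 µM SB431542, an inhibitor of TGF-beta type I receptors. The 3 R2i control cultures had these agents alone. The other 3, called BMP-inhibited here, also had 250 nM noggin, a secreted antagonist that binds BMP ligands, and 5 µM dorsomorphin, a kinase inhibitor that blocks BMP type I receptors and also AMP-activated protein kinase. The agents were given together, so their effects cannot be told apart. The labels call the cultures biological replicates of 1 cell line and do not give the length of exposure.

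Cells build cholesterol from acetyl-CoA through mevalonate, farnesyl diphosphate, squalene and lanosterol. When sterols in the endoplasmic reticulum are scarce, SCAP escorts SREBP2 to the Golgi, where proteolysis frees a fragment that activates most genes of the pathway, and INSIG proteins hold the SCAP-SREBP2 complex back when sterols are plentiful. When oxysterols accumulate, LXR receptors instead activate the exporters ABCA1 and ABCG1 and the ubiquitin ligase MYLIP, which sends lipoprotein receptors for degradation.

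Libraries held 31474666 to 35322844 counts in genes. Levels are given as CPM, a gene's share of its library scaled to the same total. Pou5f1, Nanog and Esrrb, which define the labelled cell type, were at 825, 887 and 1026 CPM in controls and 887, 639.9 and 823 CPM in BMP-inhibited cells, and the sum of 8 stem cell markers was 4605 to 4772 CPM and 4233 to 4419 CPM. Of these 8, 5 were called lower (Nanog, Esrrb, Sox2, Tdgf1 and Tfcp2l1), 1 higher (Dppa5a) and 2 did not pass (Pou5f1 and Zfp42). Over all genes tested, 32.5% were called higher and 31.7% lower at an adjusted p of 0.05. A count of called markers near these shares is no result about the markers. Some markers of other states moved with the treatment as well. The sum of 7 trophectoderm markers was 158.5 to 162.7 CPM in controls and 287.8 to 364.5 CPM in treated libraries, with 4 of 5 tested called higher. Most of this rise was in the keratins Krt8, from 18.15 to 89.96 CPM, and Krt18, from 12.03 to 78.26 CPM. Gata3 rose from 2.3 to 15.3 CPM and Hand1 from 0.0959 to 6.07 CPM. Tfap2c, the largest part of the control sum, did not pass (128.1 and 137.1 CPM). Cdx2 and Elf5 had too few counts to be tested, at 0.454 and 0.147 CPM in treated cells. The sum of 7 genes of the 2-cell-like state was 0.0276 to 0.0878 CPM and then 23.2 to 34.4 CPM, with 7 of 7 higher and Zscan4c, Duxf3 and Tcstv3 at 0 counts in the controls. The sum of 9 fibroblast markers was 5.76 to 7.15 CPM and then 11.5 to 12.5 CPM, with 3 of 5 tested higher. Most of this rise was in Acta2, from 0 to 2.37 CPM, and Col1a1, from 1.28 to 3.46 CPM. Thy1, the largest part of the control sum, did not pass (5.05 and 4.58 CPM). Col3a1, Lum and Acta2 had 0 counts in the controls and 24, 1 and 226 over the treated libraries. The sum of 6 primitive endoderm markers was 26.7 to 28.4 CPM and then 16.9 to 18.7 CPM, with 2 higher and 2 lower of 5 tested. Whether these marker changes have a part in the values below was not tested, and in bulk RNA a change in the share of cells cannot be told apart from a change per cell.

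Most of the cholesterol genes were higher in BMP-inhibited cells. Of the 29, 20 rose past an adjusted p of 0.05, where 32.5% of all 15951 genes tested were called higher. Another 3 fell, against 31.7% called lower over all genes, and 6 did not pass. Over all genes, 64.2% were called in one direction or the other. The 29 genes were chosen with earlier results of these data known, so these counts describe them and do not test the pathway. The median log2 ratio of BMP-inhibited over control (the log2 fold change of the edgeR fit) was 0.65 over the 29 genes and -0.0031 over all genes tested. In 22 genes all BMP-inhibited libraries lay above all controls (34.5% of all genes) and in 5 they lay below (34.1%). A called rise of at least 2-fold was seen in 6 of the 29, against 8.01% of all genes. These were Idi1, Hsd17b7, Hmgcs1, Fdps, Stard4 and Cyp51. All 29 passed the count filter, and the lowest count of any of them in any library was 146, for Fdps.

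**Figure D1:**
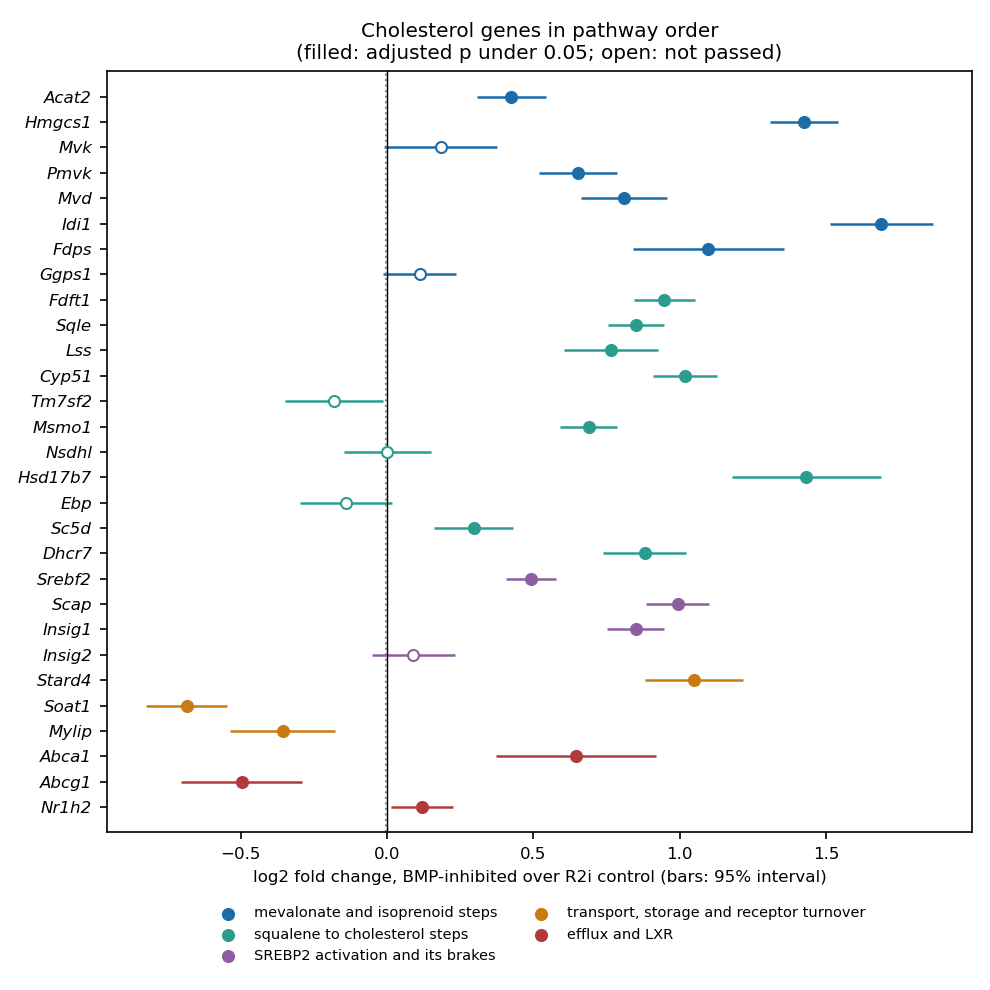
Log2 fold change (x axis) of the 29 genes in pathway order (y axis), BMP-inhibited over R2i control, with 95% intervals from the edgeR fit over 3 and 3 libraries; filled points passed an adjusted p of 0.05, and the dotted line is the median of all genes at -0.0031. Most points lie to the right of 0, Idi1 farthest at 1.69, while Soat1, Abcg1 and Mylip lie to the left and the open points stand near 0.

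The DNA before a RefSeq start is shown for 5 of these genes because they share a pathway and differ in response: Hmgcs1, Idi1 and Insig1 rose, and Insig2 and Nsdhl did not pass. Each line gives the 250 bases before a RefSeq start on GRCm38.p6, read 5′ to 3′ on the gene's strand. Capitals mark NF-Y boxes (CCAAT, or ATTGG on the other strand) and sterol regulatory elements (TCACNCCAC, or its last 8 bases, on either strand). Insig2 has 3 RefSeq starts in the table, of which 1 is shown; the windows of the others held no NF-Y box and an SP1 box each. RefSeq starts need not be the gene starts of GENCODE given further on. In GENCODE, Idi1 starts at 8885501 and Insig1 at 28071363, inside the windows shown. The marked NF-Y boxes of Idi1 and the marked sterol element of Insig1 lie after those starts.
Hmgcs1 (chr13:119690101-119690350, plus strand): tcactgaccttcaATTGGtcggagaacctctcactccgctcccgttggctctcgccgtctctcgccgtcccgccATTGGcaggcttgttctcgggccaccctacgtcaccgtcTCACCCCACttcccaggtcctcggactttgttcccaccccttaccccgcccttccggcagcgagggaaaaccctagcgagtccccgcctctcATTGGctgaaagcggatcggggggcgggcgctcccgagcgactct
Idi1 (chr13:8885356-8885605, plus strand): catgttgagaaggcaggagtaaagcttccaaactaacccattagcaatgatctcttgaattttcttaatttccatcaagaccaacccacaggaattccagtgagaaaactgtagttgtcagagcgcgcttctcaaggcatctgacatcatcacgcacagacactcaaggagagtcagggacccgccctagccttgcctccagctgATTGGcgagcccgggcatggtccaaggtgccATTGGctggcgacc
Insig1 (chr5:28071162-28071411, plus strand): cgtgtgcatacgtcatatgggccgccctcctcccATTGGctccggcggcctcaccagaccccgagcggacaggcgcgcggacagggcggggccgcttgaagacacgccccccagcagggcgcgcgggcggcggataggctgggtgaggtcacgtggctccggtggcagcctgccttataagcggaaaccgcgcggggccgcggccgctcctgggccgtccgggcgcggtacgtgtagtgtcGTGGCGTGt
Insig2 (chr1:121332590-121332839, minus strand): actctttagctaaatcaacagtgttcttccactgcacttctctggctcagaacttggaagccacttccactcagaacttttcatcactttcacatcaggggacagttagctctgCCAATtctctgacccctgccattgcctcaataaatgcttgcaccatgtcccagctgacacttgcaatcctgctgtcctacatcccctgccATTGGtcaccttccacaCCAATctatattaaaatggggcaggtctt
Nsdhl (chrX:72918271-72918520, plus strand): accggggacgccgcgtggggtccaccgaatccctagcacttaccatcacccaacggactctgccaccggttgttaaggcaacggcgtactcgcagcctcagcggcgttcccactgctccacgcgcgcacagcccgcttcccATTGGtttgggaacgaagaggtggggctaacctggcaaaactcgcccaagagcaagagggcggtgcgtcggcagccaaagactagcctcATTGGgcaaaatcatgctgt
The RefSeq table held a promoter, taken from 250 bases before to 50 after the start, for 24 of the 29 genes. Fdps, Fdft1, Sqle, Stard4 and Abcg1 had none there and were not searched. A gene with several starts counts as matched if any of its windows holds the motif. The full element TCACNCCAC was found in 1 of them, Hmgcs1, and in 1.44% of all 27025 genes with a promoter. Its shorter form CACNCCAC was found in 3, Acat2, Hmgcs1 and Insig1, and in 7.12% of all genes. An NF-Y box, bound by a factor that works beside SREBP at many sterol genes, was found in 20 of the 24 and in 41.1% of all genes. The box was in 12 of 16 genes that rose, in both genes with a promoter that fell and in all 6 that did not pass. The SP1 box GGGCGG was found in 21 of the 24 and in 38.2% of all genes. The LXR element searched, AGGTCA repeated after 4 bases, was in none of the 24 and in 0.0148% of all genes. All motifs were searched on both strands. These are matches of letters in a short window, with overlaps between the full and short sterol elements. The 27025 genes were not limited to those that passed the count filter, as the 24 did. Their shares are therefore not a matched background.

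The enzymes that lead from acetyl-CoA to farnesyl and geranylgeranyl diphosphate rose at 6 of 8 genes and fell at none. Over all genes tested, 32.5% were called higher and 31.7% lower. The median log2 ratio of the 8 was 0.73. Hmgcs1 (ENSMUSG00000093930, chromosome 13, 119690379 to 119708260 on GRCm38), the synthase that makes HMG-CoA, was at 122, 118 and 126 CPM in the controls and at 342, 298 and 341 CPM in BMP-inhibited cells. The lowest treated library was thus well above the highest control. Its log2 ratio was 1.43 (SE 0.05, adjusted p = 9.34e-12). Idi1 (ENSMUSG00000058258, chromosome 13, 8885501 to 8892451), the isomerase that makes the reactive isoprenoid unit dimethylallyl diphosphate, had 10.9, 11.1 and 12.7 CPM in controls and 38.7, 34.1 and 38.9 CPM with the inhibitors. This was the largest rise of the 29, at 1.69 (SE 0.08, adjusted p = 1.40e-10).

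Among the other genes of this stretch the rises were smaller. Mvd, the decarboxylase that completes isopentenyl diphosphate, rose from 28.9 ± 0.844 to 50.6 ± 4.59 CPM (SD, n = 3), and Pmvk, the kinase before it, from 22.0 ± 0.278 to 34.5 ± 0.181 CPM. Acat2, the thiolase of the opening condensation, rose by 0.42 (SE 0.06). Fdps, which builds farnesyl diphosphate, was counted at 4.27, 5.43 and 5.49 CPM in controls and at 11.4, 10.2 and 10.96 CPM in treated cells, a log2 ratio of 1.10 (SE 0.12, adjusted p = 1.12e-06). Its level is uncertain: 6 annotated genes match its longest coding transcript over at least 300 bases, one of them over 81.6% of it, and 26.7% of its exon length is shared with Gm43738 on the same strand. Acat2 likewise matches Acat3 or Tcp1 over up to 65.6% of its transcript, and Idi1, Hmgcs1, Ggps1, Fdft1, Lss and Scap have matches of 7.52% to 33.7%. Exons of Hmgcs1, Idi1, Ggps1, Fdft1, Lss, Cyp51 and Scap overlap an antisense gene over 3.53% to 18.3% of their length, and those of Tm7sf2 overlap Vps51 on the same strand over 12.1%, so reads there may belong to either gene.

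The remaining genes, Mvk and Ggps1, did not pass. Mvk, the kinase that phosphorylates mevalonate, was at 26.6, 30.1 and 25.2 CPM in controls and at 26.4, 33.2 and 33.4 CPM in treated cells. The groups overlapped, with treated replicate 1 among the controls, and the log2 ratio of 0.18 (95% interval -0.01 to 0.38) did not pass (adjusted p = 0.0909). Without that library the Mvk call passed (log2 ratio 0.29, adjusted p = 0.00375), as it did when control replicate 2 was left out (0.25, adjusted p = 0.0498) or genes of low count were kept (0.18, adjusted p = 0.0476). Ggps1, which diverts farnesyl diphosphate to the geranylgeranyl groups that anchor proteins in membranes, was at 43.9, 46.4 and 41.2 CPM in controls and at 47.6, 47.0 and 47.4 CPM in treated cells. The treated libraries lay just above the controls, at a log2 ratio of 0.11 (95% interval -0.01 to 0.24, adjusted p = 0.108).

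From squalene to cholesterol, 8 of 11 genes rose and none fell, beside 32.5% called higher and 31.7% lower over all genes. The median log2 ratio of the 11 was 0.77. Fdft1, squalene synthase and the committed step to sterols, went from 104, 108 and 110 CPM to 203, 198 and 221 CPM, a log2 ratio of 0.95 (SE 0.05, adjusted p = 2.43e-10). Sqle, the epoxidase that adds oxygen to squalene, went from 89.1, 87.6 and 88.9 CPM to 160.2, 152 and 166.5 CPM. Both groups were tight, and the change was 0.85 (SE 0.05). Cyp51, the lanosterol demethylase, rose from 55.8 ± 1.55 to 113 ± 5.76 CPM, by 1.02 (SE 0.05), and Lss, which closes the sterol rings, by 0.77 (SE 0.08).

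Hsd17b7 (ENSMUSG00000026675, chromosome 1, 169949535 to 169969241), a ketoreductase that acts on the sterol intermediates, had the largest change of these steps. It was at 8.95, 9.52 and 6.66 CPM in controls and at 25.5, 21.7 and 20.8 CPM in treated cells, so that every treated library was above every control. The log2 ratio was 1.43 (SE 0.12, adjusted p = 5.13e-08). Dhcr7, the reductase that yields cholesterol itself, rose from 35.0 ± 2.46 to 64.5 ± 4.38 CPM, and Msmo1, the oxidase that removes sterol methyl groups, from 73.5 ± 1.79 to 118 ± 3.11 CPM. Sc5d, a desaturase, rose least among the called genes of these steps, by 0.30 (SE 0.06).

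Nsdhl, Ebp and Tm7sf2, which act between these enzymes, did not pass. Nsdhl, the dehydrogenase that works with Msmo1 and Hsd17b7 in removing the methyl groups, was at 26.5, 24.3 and 26.9 CPM in controls and 24.7, 26.7 and 26.4 CPM in treated cells. The groups overlapped fully, and the 95% interval of the log2 ratio was -0.15 to 0.15. Ebp, the isomerase that shifts the ring double bond, was at 22.0, 20.7 and 21.2 CPM and then at 18.4, 20.3 and 19.3 CPM. Tm7sf2, one of the sterol reductases, was at 19.1, 20.9 and 21.6 CPM and then at 17.1, 18.8 and 18.4 CPM. For both the treated libraries lay just below the controls without passing, at a log2 ratio of -0.14 for Ebp (SE 0.07, adjusted p = 0.112) and -0.18 for Tm7sf2 (SE 0.08, adjusted p = 0.0557). Both were called lower without BMP-inhibited replicate 2 (adjusted p = 0.0481 for Ebp and 0.031 for Tm7sf2) and with library totals in place of TMM (0.0319 and 0.0163). Tm7sf2 was also called lower without control replicate 1 (0.0411) and with upper-quartile factors (0.0422). Lbr, another sterol reductase that can act at the step of Tm7sf2, is outside the 19 enzymes of synthesis. It rose from 204 ± 4.92 to 247 ± 9.09 CPM, a log2 ratio of 0.28 (SE 0.04, adjusted p = 3.93e-05). The values of Tm7sf2 alone therefore do not describe this step. The summed level of the 19 enzymes of synthesis was 851 to 872 CPM in controls and 1467 to 1578 CPM in BMP-inhibited libraries.

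**Figure D2:**
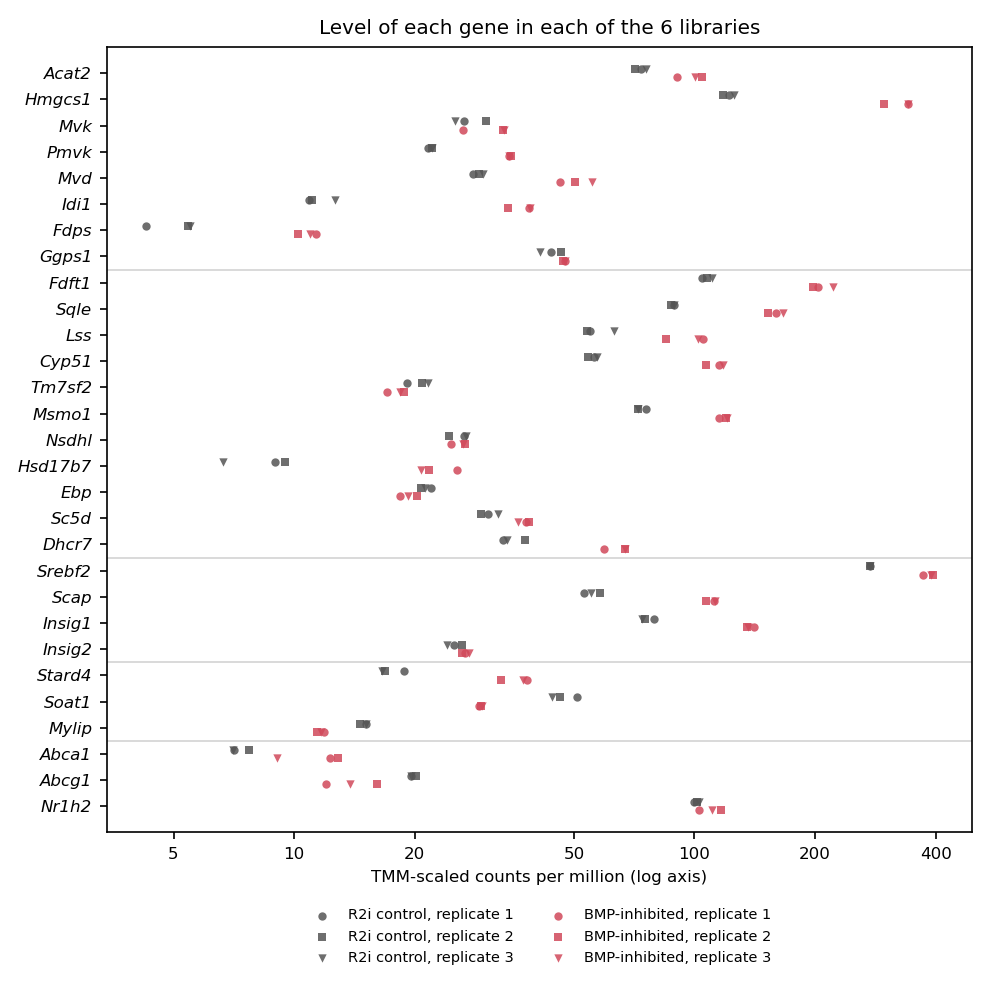
TMM-scaled CPM on a log axis (x) for the 29 genes in pathway order (y), with 1 symbol for each of the 3 R2i control (grey) and 3 BMP-inhibited (red) libraries; grey lines separate the role groups. For Hmgcs1, Idi1 and Hsd17b7 the groups stand far apart, while for Nsdhl and Mvk they overlap and for Soat1 the treated libraries, at 29 to 29.5, lie below the controls.

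Per kilobase of exon, the synthesis enzymes differed widely in level. In control cells the highest were Acat2 at 28.8 ± 0.902, Hmgcs1 at 26.5 ± 0.866 and Fdft1 at 25.4 ± 0.710 RPKM (SD, n = 3), the last 2 apart by little more than their SDs. Sqle and Mvd followed at 15.96 ± 0.152 and 15.5 ± 0.454 RPKM, and Ggps1, Ebp and Nsdhl formed a middle rank at 9.28 ± 0.552, 9.23 ± 0.268 and 9.09 ± 0.489 RPKM that their SDs do not separate. Idi1, Hsd17b7 and Fdps were lowest at 3.30, 1.641 and 1.204 RPKM, Fdps with the uncertainty given above. In BMP-inhibited cells Hmgcs1 led at 71.2 ± 5.45 RPKM, followed by Fdft1 at 49.1 ± 2.90 and Acat2 at 38.7 ± 2.81 RPKM. Idi1 reached 10.6 ± 0.766 RPKM, above Nsdhl, Ebp and Ggps1, at 9.08, 8.38 and 10.03 RPKM, though its distance from Ggps1 is within its SD. The order depends on the length used. With the longest transcript in place of all exons, Hmgcs1 led the controls at 35.2 ± 1.15 RPKM, ahead of Acat2 at 32.6 ± 1.02, and Ebp at 12.2 ± 0.355 stood above Ggps1 at 10.3 ± 0.614. With that length the levels of 5 genes came out over 1.5 times higher. In controls Msmo1 then stood at 24.7 in place of 11.96 RPKM, Dhcr7 at 12.4 in place of 6.02, Lss at 8.18 in place of 5.30, Scap at 13.1 in place of 7.45 and Nr1h2 at 50.7 in place of 30.2.

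**Figure D3:**
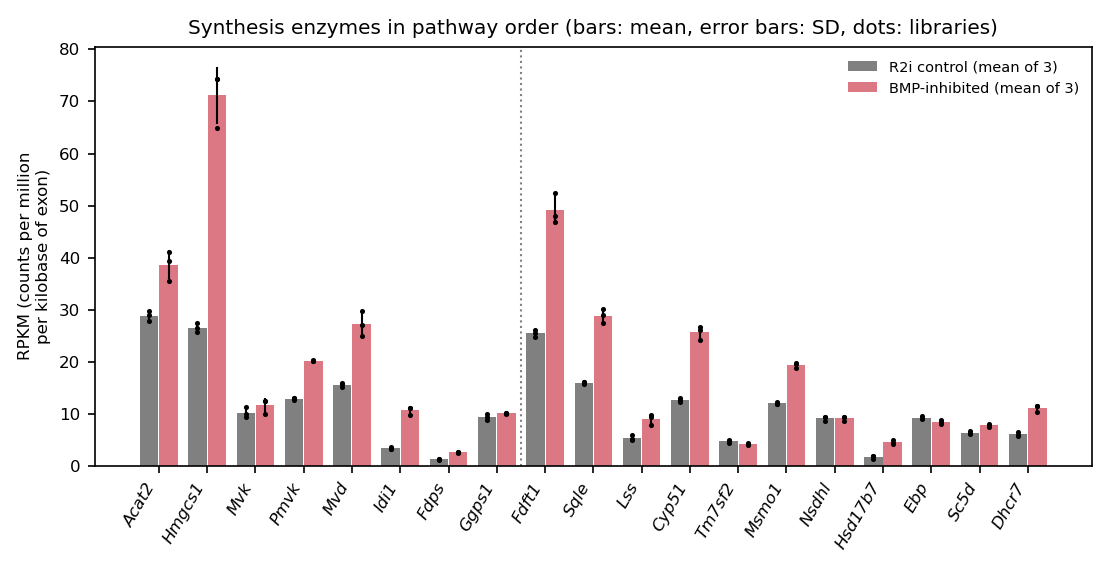
RPKM, CPM per kilobase of exon (y), of the 19 synthesis enzymes in pathway order (x), mean ± SD of 3 libraries with each library as a dot, in R2i control (grey) and BMP-inhibited (red) cells; the dotted line separates the mevalonate and isoprenoid steps from those that begin with squalene synthase. Hmgcs1 rises from 26.5 to 71.2 RPKM and Fdft1 from 25.4 to 49.1, whereas Nsdhl is at 9.09 and 9.08.

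Of the 4 genes that control SREBP2, 3 rose, beside 32.5% called higher and 64.2% called in either direction over all genes. Srebf2, which encodes SREBP2, was at 274, 274 and 274 CPM in the controls and at 373, 393 and 389 CPM in treated cells, a rise of 0.49 (SE 0.04, adjusted p = 3.09e-08) over very even controls. Scap, the sterol-sensing escort, rose from 52.9, 58.1 and 55.2 CPM to 112, 107 and 112 CPM, by 0.99 (SE 0.05). Insig1, which retains the complex and is itself an SREBP target, went from 79.2, 75.3 and 74.1 CPM to 140.5, 135 and 136 CPM, by 0.85 (95% interval 0.75 to 0.95). Its paralog Insig2, whose transcription is known to depend less on SREBP, was at 25.1, 26.3 and 24.2 CPM and then at 26.8, 26.3 and 27.3 CPM. The lowest treated library of Insig2 barely cleared the highest control, and its log2 ratio of 0.09 (95% interval -0.05 to 0.23, adjusted p = 0.249) did not pass. The intervals of the paralogs do not meet, though the difference between them was not tested.

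Genes of transport and storage went in different directions. Stard4, a cytosolic sterol carrier and SREBP target, was at 18.8, 16.9 and 16.6 CPM in controls and 38.1, 32.9 and 37.3 CPM in treated cells, a rise of 1.05 (SE 0.08, adjusted p = 1.42e-08). Soat1 (ENSMUSG00000026600, chromosome 1, 156424525 to 156474331), which esterifies cholesterol for storage in lipid droplets, fell from 50.9, 46.1 and 44.2 CPM to 29, 29.3 and 29.5 CPM. The treated libraries were nearly identical and all below the controls, with a log2 ratio of -0.69 (SE 0.06, adjusted p = 1.99e-07). Mylip, the ligase that removes lipoprotein receptors, was at 15.1, 14.6 and 15.1 CPM and then at 11.9, 11.4 and 11.7 CPM, a log2 ratio of -0.36 (SE 0.08, adjusted p = 0.00155).

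The exporters did not move together. Abca1, which loads cholesterol onto apolipoproteins, rose from 7.08, 7.70 and 7.03 CPM to 12.3, 12.8 and 9.05 CPM. Treated replicate 3 stood nearest the controls, and the change was 0.65 (SE 0.13, adjusted p = 0.000389). Abcg1, which exports sterol to lipoprotein particles, went the other way, from 19.6, 20.1 and 19.6 CPM to 12.05, 16.15 and 13.8 CPM, with a log2 ratio of -0.50 (SE 0.10, adjusted p = 0.000332). Nr1h2, which encodes LXR-beta, was at 99.9, 101.5 and 102.5 CPM and then at 102.7, 117 and 111 CPM. It passed narrowly (log2 ratio 0.12, SE 0.05, adjusted p = 0.047), and the call was lost under 9 of 14 alternatives, with adjusted p from 0.00231 to 0.311 over all of them. It was lost without control replicate 1, 2 or 3 (0.159, 0.133 and 0.11), without BMP-inhibited replicate 2 or 3 (0.131 and 0.0945), with DESeq2 (0.0508), with upper-quartile factors (0.0897), with no count filter (0.0708) and with library totals only (0.311). Abca1, Abcg1 and Mylip, all activated by LXR in textbook accounts, thus gave 1 rise and 2 falls.

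BMP-inhibited replicate 2 was the lowest of the 3 for 10 of the 20 genes that rose, among them Hmgcs1, Idi1, Lss, Cyp51, Sqle and Stard4. The same held for 50.8% of all 5180 genes called higher. Without it, 19 of the 29 were higher and 5 lower, and log2 ratios were 1.49 for Hmgcs1 and 1.75 for Idi1.

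Genes around the pathway were described through 6 lists holding 63 genes, of which 62 were matched and 59 tested. The lists too were chosen with earlier results of these data known. Over these lists 25 genes were called higher, 21 lower and 13 neither (median 0.02); over all genes 32.5% were higher and 31.7% lower, and a count near these shares is no result about its list. Of 11 fatty acid genes listed as driven by SREBP, 10 were higher and 1, Mid1ip1, was lower (median 0.53). SREBP activity itself was not measured. Elovl6, a fatty acid elongase, rose from 148 ± 2.09 to 322 ± 39.7 CPM, Fasn, fatty acid synthase, from 341 ± 3.63 to 608 ± 44.4 CPM, and Srebf1, the paralog of Srebf2, by 0.73 (SE 0.05). Fads2, a desaturase, rose by 0.58 (SE 0.05). Among 4 genes of acetyl-CoA supply 3 rose, Acly, which makes cytosolic acetyl-CoA from citrate, by 0.34, Acss2 by 0.51 and Acat1, whose groups overlapped, by 0.22, while Slc25a1, the mitochondrial citrate carrier, fell (log2 ratio -0.43, SE 0.06).

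Of 12 other tested sterol enzymes and regulators 3 rose and 5 fell (median -0.11), and with 64.2% of all genes called this count is near the background. Mbtps1, the protease that makes the opening cut in SREBP, rose by 0.48 (SE 0.05) and Por, the electron donor of CYP51 and squalene epoxidase, by 0.45 (SE 0.06). Lbr, given above beside Tm7sf2, was the other gene of this list that rose. Syvn1, a ubiquitin ligase that marks misfolded proteins of the endoplasmic reticulum, was lower, at 58.4 ± 3.77 CPM against 124 ± 1.503 CPM in controls and a log2 ratio of -1.09 (SE 0.05). Genes that use isoprenoids had 2 higher and 4 lower of 10 (median -0.12), also near it. Rabggta, a subunit of the enzyme that attaches geranylgeranyl groups to RAB proteins, fell from 141 ± 1.97 to 71.4 ± 5.16 CPM. Coq2, of ubiquinone synthesis, fell from 49.1 ± 2.14 to 28.9 ± 1.03 CPM. Rabggtb, the other subunit of the enzyme that holds Rabggta, rose by 0.48, and Fnta, a subunit of other prenyltransferases, by 0.37.

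Other uptake and transport genes had 6 higher and 6 lower of 14 (median 0.14), beside 32.5% and 31.7% over all genes. Soat2, the paralog of Soat1, fell from 23.9 ± 0.285 to 3.21 ± 0.432 CPM, a log2 ratio of -2.90 (SE 0.11, adjusted p = 5.70e-12). Vldlr, a lipoprotein receptor, fell from 21.9 to 6.11 CPM, with a log2 ratio of -1.84 (SE 0.10). Lipa, the lysosomal lipase that frees cholesterol from its esters, rose from 2.35 ± 0.113 to 7.61 ± 0.485 CPM, and Gramd1b, a carrier of sterol from the plasma membrane, by 0.66 (SE 0.07). LXR partners, LXR targets and oxysterol enzymes had 1 higher and 4 lower of 8 tested (median -0.39). Rxra, a partner of LXR, rose by 0.76 (SE 0.07), while Lpcat3, Arl4c and Cyp27a1 had log2 ratios of -0.46, -0.32 and -0.75. Abcg5, Abcg8 and Ch25h had too few counts to be tested.

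**Figure D4:**
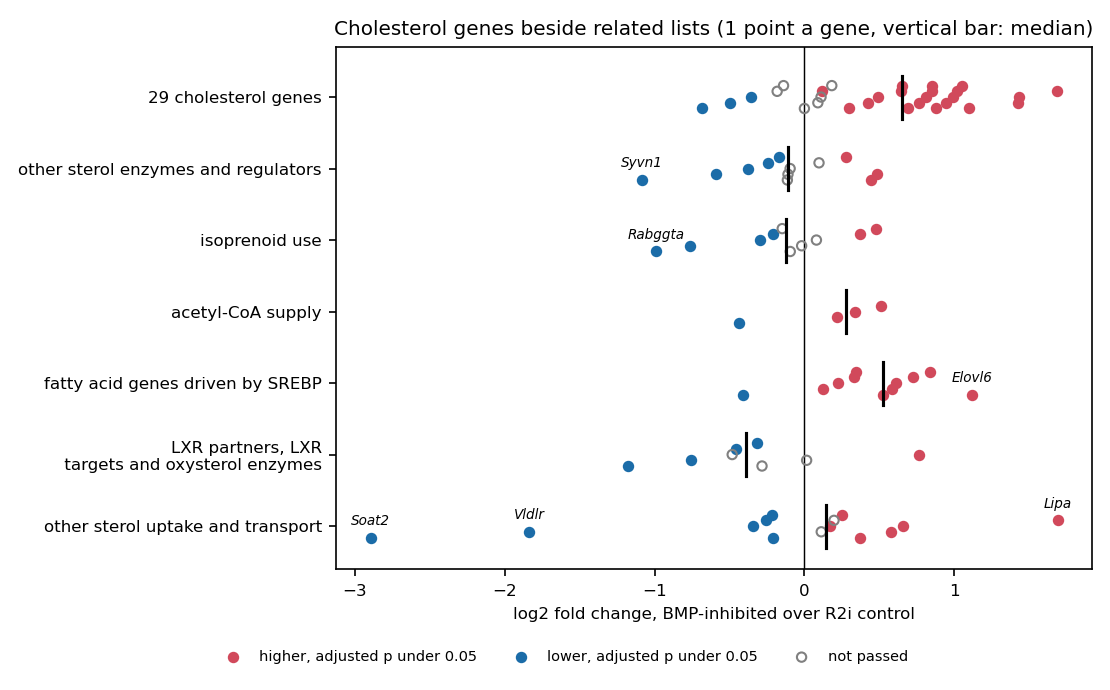
Log2 fold change (x), BMP-inhibited over R2i control, of each tested gene of the 29 and of 6 related lists (y), with red for called higher, blue for called lower, open for not passed and a vertical bar at the median of the list. The medians of the 29 genes and of the fatty acid genes listed as driven by SREBP, 0.65 and 0.53, lie right of 0. Soat2, Vldlr and Lipa stand farthest out among the transport genes.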

How the data were processed

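Poly(A) RNA from 6 cultures was sequenced with a strand-marking kit, per the labels' protocols. The authors deposited 1 table of raw counts per gene for each library. GRCm38.p6, STAR 2.6.1, HTSeq 0.9.1, cutadapt 1.4.2, CASAVA 1.8.2 and DESeq2 are listed in the submitters' processing notes, with no role. The annotation release and strand setting are not given in the sources used here. The 5 closing rows that name no gene held 25.6% to 26.4% of reads and were left out. The labels call the cultures biological replicates; p-values measure only the spread between them.

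Symbols, coordinates and exon lengths came from GENCODE M21 (GRCm38), which matched 53360 of 53465 identifiers. In R 4.3.3, edgeR 4.0.16 scaled the counts by TMM, kept 15951 genes by its default filter (minimum count 10, minimum total 15) and ran the quasi-likelihood F test on both groups of 3, two-sided. Benjamini-Hochberg adjustment covered all of these genes, at a threshold of 0.05. CPM are TMM-scaled, and RPKM are CPM per kilobase of the union of exons. The SE and the 95% interval of a log2 ratio were derived from the fitted coefficient without shrinkage. The procedure was run on 10 simulated data sets, with 50 genes changed at each of the folds 1.3, 1.5, 2 and 4. It recovered 75.4% of them at 1.3-fold and 98.4% at 2-fold, and 5.6% of calls were false. Averaging over 10 sets was adopted after a first single set had given a higher false share. Far fewer genes changed there than were called here, so the false share among the present calls was not tested. Alternatives were DESeq2 1.42.0, voom from limma 3.58.1, other scalings and filters, a replicate block and leaving out each library. Similar transcripts were sought with blastn (90% identity over 300 bases); this length, and the choice of coding transcripts, were set after a first result was seen.

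The 29 genes and all lists were chosen with earlier results of these data known. Values in every library are given for the genes with the largest changes in each role group and those that did not pass. From each other list up to 4 tested genes with the smallest p were named, except 1 that is not reported here; other names there, and the 5 promoters printed, were chosen after their values were seen.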

Additional observations from a re-analysis of the deposited data

How the results depend on the processing

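The direction and the side of the threshold held under all 14 alternatives for 24 of the 29 genes, 22 of them called. The other 5 were Nr1h2, Mvk, Ebp, Tm7sf2 and Nsdhl. The calls among the 29 that were lower numbered 5 with library totals only in place of 3, and 3 to 5 when 1 library was left out, with 5 without BMP-inhibited replicate 2. The sign of the Nsdhl log2 fold change, near 0, turned with library totals only (-0.058), with upper-quartile factors (-0.016) and with no count filter (-0.0042), and it ranged from -0.052 to 0.037 when a library was left out. The cause of these shifts was not tested. With CACNCCAC as the sterol element 3 genes matched in place of 1, since the shorter form has fewer fixed bases. Upper-quartile factors and leaving out control replicate 1 each added 1 lower call, Tm7sf2. Library totals moved the median log2 fold change of all genes to -0.062 and that of the 29 to 0.59. Of 58 RPKM values, 49 moved by more than 1 SD with the longest transcript as the length.

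Replicate numbers were not taken to pair the libraries: deviations from the group means correlated at -0.044, 0.008 and 0.029 between same-numbered libraries, and control replicates 1 and 2 did not correlate best with their own number. With the replicate number as a block 20 of the 29 were higher and 3 lower, as without it, and 5149 and 5061 of all genes were higher and lower. The number of libraries, 3 in each group, limits the precision.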
